A study of Mus musculus with 11 samples.

Results

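The valine, isoleucine and phenylalanine tRNAs were the entries of the abundance tables whose names begin with those amino acids, 29 of 301 tRNA entries. They comprised 17 valine entries (6 ValAAC, 10 ValCAC and 1 ValTAC), 9 isoleucine entries (5 IleAAT, 3 IleTAT and 1 IleGAT) and 3 phenylalanine entries, all PheGAA. An entry is named by amino acid, anticodon in DNA letters and a number given by the authors. The libraries came from mouse embryonic fibroblasts carrying SV40 T antigen, a viral protein that lets such cells grow on in culture. Stable clones were made with pBabe retroviral vectors, for METTL1 and WDR4 or empty as control, and were kept on puromycin and G418 except during expansion and lysis; this is described for the wild-type construct and the empty vector. The 3 groups were empty vector, WDR4 with wild-type METTL1, and WDR4 with a METTL1 labelled as mutant, with 2 input libraries each, and the parent cells of all groups are labelled Wt. The change in the mutant, the number of clones behind a group and whether its 2 libraries came from separate cultures are not given, so a p-value here reflects only the spread between libraries, which may be technical.

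Each tRNA pairs its anticodon with codons of the messenger RNA and delivers the matching amino acid. tRNAs with different anticodons for the same amino acid are called isoacceptors. In mammals the first base of the anticodons written AAC and AAT is converted to inosine, which lets ValAAC and IleAAT read several codons, while ValCAC reads GUG, ValTAC reads GUA, IleTAT reads AUA and PheGAA reads both phenylalanine codons. METTL1, with its partner WDR4, places N7-methylguanosine (m7G) on a guanosine in the variable loop of certain tRNAs, and loss of the mark is known to make some of them less stable. ValAAC, ValCAC, ValTAC, IleAAT, IleTAT and PheGAA belong to the families known as carriers of the mark, and the rare IleGAT was not listed with them.

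The input libraries hold small RNA treated with AlkB, an enzyme that removes base methylations which block reverse transcription, without the cleavage step that maps m7G. Abundance was given in RPM, the reads of an entry per 1000000 tRNA reads, so a value is a share of the tRNA reads and a change in total tRNA cannot be seen. The values imply 5405585 to 16003708 reads per library, the lowest in empty vector library 2. The messages of METTL1 and WDR4 and markers of fibroblasts are not in these tRNA tables, so the labels were not checked against them. The RefSeq table of GRCm38.p6, the assembly that mm10 names, lists 45 tRNA genes of these 6 anticodons and none of IleGAT, with 20 of the 45 on chromosome 13. They are 15 IleAAT, 11 ValCAC, 8 ValAAC, 7 PheGAA, 3 ValTAC and 1 IleTAT gene. Entry numbers could not be tied to these genes, so no position is given for an entry. The listed Val and Phe genes are 72 to 73 bases long, so that RPM values of Val and Phe entries are close to values per length.

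Together the 29 entries took 5.29% to 6.48% of tRNA reads. Valine made up most of it, with 51807 and 59704 RPM in the empty vector libraries 1 and 2, 52047 and 56418 RPM in the wild-type libraries, and 48017 and 55953 RPM in the mutant libraries. In each group library 2 was the higher one, and the groups overlapped. Phenylalanine entries summed to 2632.7 to 3309.9 RPM and isoleucine entries to 2275.1 to 2486.0 RPM across the 6 libraries. Of the 29 entries, 20 had a mean of at least 100 RPM over the 6 libraries, 8 lay between 1 and 100 RPM, and IleGAT158 lay under 1 RPM.

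**Figure D1:**
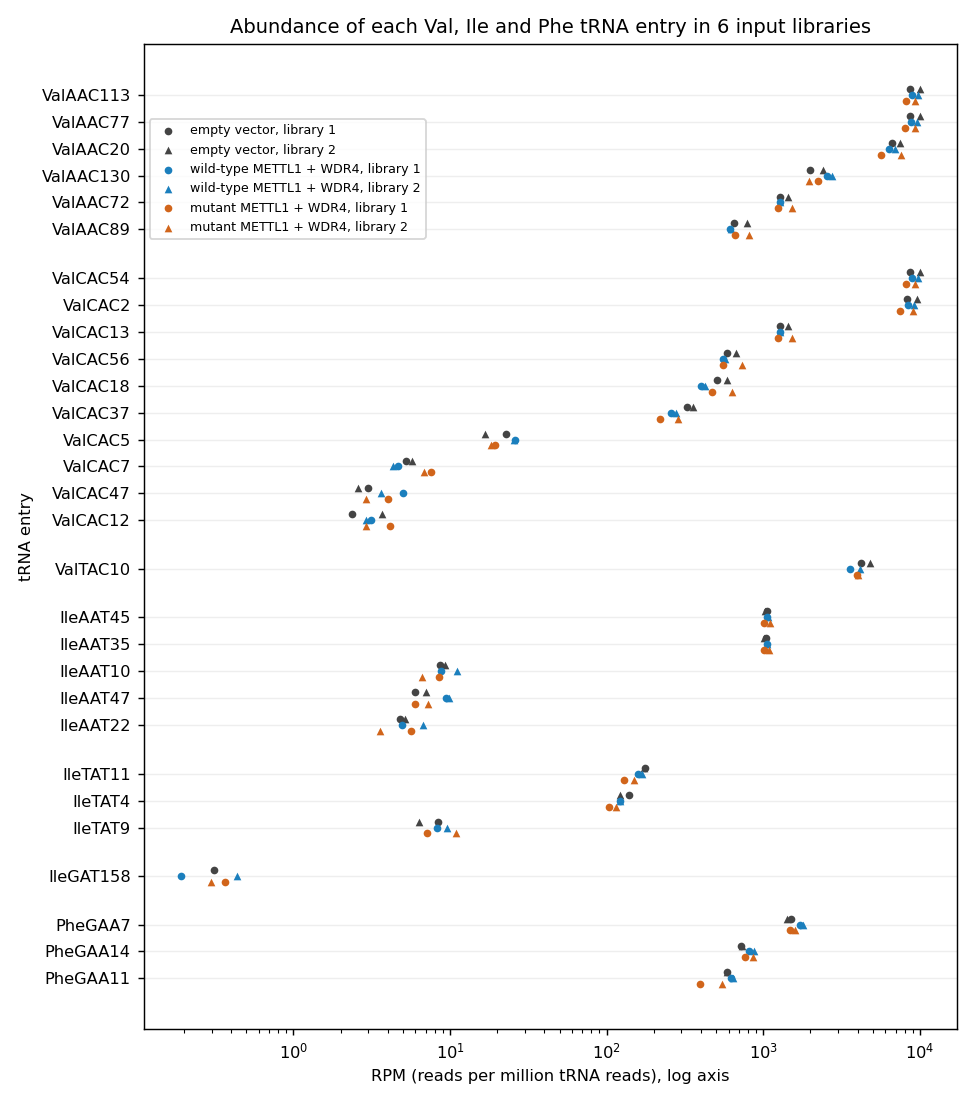
RPM on a log axis for each of the 29 entries, grouped by anticodon, with 1 point per input library, colours for the 3 groups and shapes for libraries 1 and 2; the empty vector library 2 value of IleGAT158 is 0 and is not drawn. ValCAC54, ValAAC113, ValAAC77 and ValCAC2 lie at the top, between 7476 and 10084 RPM, while 4 of 10 ValCAC and 3 of 5 IleAAT entries lie under 30 RPM.

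The most abundant ValAAC and ValCAC entries could not be told apart by their values. ValCAC54 stood at 8700.3 and 10084 RPM for empty vector, 8951.8 and 9704.6 RPM for wild-type METTL1, and 8101.8 and 9320.1 RPM with mutant METTL1. ValAAC113, which has another anticodon, differed from it by at most 0.167% in any library, or 40 to 163 reads. Independent counts of that size would differ with a counting SD of 330 to 528 reads, so the gap was under counting error in 6 of 6 libraries. The same held for ValCAC13 and ValAAC72, which differed by at most 0.283%, and for IleAAT45 and IleAAT35, which share an anticodon and differed by at most 1.13%. ValAAC77 lay within 1.30% of ValCAC54, and ValCAC2 within 7.72% of it. ValAAC77 differed from ValCAC54 by less than the counting SD in 1 of 6 libraries. The sources used here do not give how a read that fits several entries was counted, and whether these entries hold the same reads was not tested.

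The balance of valine isoacceptors depends on that point. With all entries summed, ValAAC took 53.9% of valine RPM in both empty vector libraries, ValCAC 38.1% and 38.0%, and ValTAC 8.06% and 8.09%. With entries within 5% of each other in all 6 libraries counted once, at the first of them in the table, the ValAAC share was 28.0% and 27.9% and the ValCAC share 59.4% in both. Table order credited each set that spans both anticodons to ValCAC, so this rule itself lowers ValAAC and raises ValCAC. Crediting these sets to ValAAC would move the shares the other way. Which of the sums is closer to the cells cannot be told apart from these values. ValTAC, with its single entry ValTAC10, is not part of such a set. IleAAT took 86.7% and 87.2% of isoleucine RPM in the empty vector libraries and IleTAT 13.2% and 12.8%. The implied reads of IleGAT158 were 5 and 0 for empty vector, 2 and 6 for wild-type METTL1, and 5 and 3 for mutant METTL1. A count of 0 allows up to 3 reads, or 0.555 RPM in empty vector library 2, by counting error only, and no fold is given for this entry.

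Within an anticodon a few entries held most of the signal. ValCAC54 and ValCAC2 made up 85.1% to 87.9% of ValCAC in the 6 libraries, IleAAT45 and IleAAT35 98.7% to 99.2% of IleAAT, and IleTAT11 and IleTAT4 96.1% to 97.9% of IleTAT. PheGAA7 alone held 51.9% to 55.9% of PheGAA. At the lower end ValCAC12 stood at 2.37 to 4.11 RPM, IleAAT22 at 3.59 to 6.73 RPM and IleTAT9 at 6.29 to 10.9 RPM. ValAAC had no such minor entry, as its lowest, ValAAC89, stood at 609 to 809 RPM.

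The 2 libraries of a group differed in one direction for most valine entries. All 13 valine entries with a mean over 100 RPM were higher in empty vector library 2 than in library 1, with a median log2 difference of 0.21. The same 13 were higher in wild-type library 2 than in library 1 (median 0.11), and 12 of 13 were higher in mutant library 2 (median 0.28). Over all 17 valine entries, 15, 13 and 12 were higher in library 2 of empty vector, wild type and mutant. Of the 12 isoleucine and phenylalanine entries, 5, 11 and 9 were higher. The direction was thus not particular to valine in the METTL1 groups, and no such count was made over all 301 entries. Some valine entries lie within 5% of each other, so these are not counts of separate observations. Over the 29 entries the median of the SD of log2 values was 0.14 in empty vector, 0.06 with wild-type METTL1 and 0.17 with mutant METTL1, against 0.08, 0.06 and 0.15 over all 301 entries.

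The first comparison set wild-type METTL1 with WDR4 against empty vector. PheGAA7 rose, while the other phenylalanine entries, PheGAA14 and PheGAA11, were not called. ValCAC54, ValAAC113, ValAAC77, ValCAC2, ValAAC20, IleAAT45 and IleAAT35 had log2 fold changes from −0.09 to 0.04. Among the less abundant valine entries ValCAC18 and ValCAC37 fell and ValAAC130 and ValCAC5 rose, and IleAAT47, a minor isoleucine entry, rose. In all, 4 of the 29 entries rose, beside a share of 30.2% among all 301 entries, and 2 fell, beside 7.31% (limma, Benjamini-Hochberg (BH) adjusted p under 0.05 over 301 entries). The median log2 fold change was −0.01 over the 29 entries and 0.16 over all entries. For the 148 other entries of families given as carrying m7G it was 0.23, with 61 higher and 13 lower, and for the 105 entries of families given as lacking m7G it was 0.11, with 25 higher and 6 lower. Both lists came from background knowledge and not from the labels. The latter holds aspartate, glutamate, glutamine, glycine, histidine, leucine, serine and selenocysteine tRNAs and the arginine anticodons ACG, CCG, CCT and TCG. With libraries centred on the latter families, which moved all log2 fold changes by −0.21, 0 of the 29 rose and ValCAC18, ValCAC37 and IleTAT4 fell, and all entries then had 29 higher and 38 lower in place of 91 and 22. With libraries centred on all entries, 0 rose and ValCAC18 fell.

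PheGAA7 was measured at 1498 and 1426 RPM in the empty vector libraries, and at 1727 and 1793 RPM in the wild-type libraries. Both wild-type libraries lay above both controls, and the entry rose by a log2 fold change of 0.27 (SE 0.09, limma adjusted p = 0.025). PheGAA14 stood at 723 and 735 RPM in the empty vector libraries, and at 815 and 878 RPM with wild-type METTL1 (log2 fold change 0.21, limma adjusted p = 0.082). PheGAA11 stood at 584 and 587 RPM and at 625 and 639 RPM. In these 3 entries the groups did not overlap, though PheGAA11 was not called (0.11, limma adjusted p = 0.40). A positive log2 fold change was found for 225 of all 301 entries. Centred on the families given as lacking m7G, the log2 fold change was 0.0088 for PheGAA14 and −0.09 for PheGAA11. Groups lay apart in the higher direction for 9 of the 29 entries and for 49.5% of all entries, and in the lower direction for 7 of the 29 and 15.0% of all. The sum of the 3 entries was 2776 ± 40.5 RPM for empty vector and 3239 ± 101 RPM for wild type (SD, n = 2 libraries each). Its log2 fold change of 0.22 had a 95% interval of 0.03 to 0.41 and did not pass over the 54 anticodons (limma adjusted p = 0.077). The PheGAA7 call ended without wild-type library 1 (0.29, limma adjusted p = 0.25) or library 2 (0.24, limma adjusted p = 0.38), and when centred on the families given as lacking m7G (0.06) or on all entries (0.24), and it held in 8 of 14 alternative fits. In the authors' deposited table, for wild type, the unadjusted p-value was 0.026 for PheGAA7, 0.023 for PheGAA11 and 0.034 for IleAAT47, and no other of the 29 entries was under 0.05.

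ValCAC18 was measured at 506 and 586 RPM in the empty vector libraries, and at 401 and 422 RPM in the wild-type libraries. Both wild-type libraries lay below both controls, and the entry fell by 0.40 on the log2 scale (SE 0.10, limma adjusted p = 0.0039). As pooled cells were measured, less of this tRNA per cell and fewer cells with it cannot be told apart. ValCAC37 stood at 324 and 355 RPM in the empty vector libraries, and at 258 and 279 RPM with wild-type METTL1, and it fell by 0.34 (SE 0.10, limma adjusted p = 0.015). The ValCAC18 call held in 13 of 14 alternative fits and was lost without wild-type library 1 (−0.37, limma adjusted p = 0.10). The ValCAC37 call ended without wild-type library 1 (−0.28, limma adjusted p = 0.24), without wild-type library 2 (−0.39, limma adjusted p = 0.067), without empty vector library 2 (−0.27, limma adjusted p = 0.062) and with libraries centred on all entries (−0.36, limma adjusted p = 0.060).

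ValAAC130 stood at 1982 and 2424 RPM in the empty vector libraries, and at 2543 and 2736 RPM with wild-type METTL1, so the groups lay apart. The entry rose by a log2 fold change of 0.27 (SE 0.10, limma adjusted p = 0.035), while the other 5 ValAAC entries had log2 fold changes from −0.21 to −0.01 with no call. Without empty vector library 1 its value was 0.12 (limma adjusted p = 0.23), without wild-type library 1 it was 0.32 (limma adjusted p = 0.19) and without wild-type library 2 it was 0.21 (limma adjusted p = 0.42). The call was also lost when centred on the families given as lacking m7G (0.06) or on all entries (0.24), and it held in 5 of 14 alternative fits.

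The other calls were at low levels. ValCAC5 stood at 22.7 and 16.6 RPM for empty vector, against 26.0 and 25.6 RPM with wild-type METTL1 (log2 fold change 0.39, SE 0.15, limma adjusted p = 0.047). It held 90 reads in empty vector library 2, and without that library the value was 0.17 (limma adjusted p = 0.45). Without wild-type library 1 or 2 it was 0.38 and 0.40, with no call (limma adjusted p 0.16 and 0.14). IleAAT47 stood at 5.94 and 7.03 RPM for empty vector, against 9.41 and 9.92 RPM with wild-type METTL1 (log2 fold change 0.51, SE 0.17, limma adjusted p = 0.021). These values rest on 38 to 137 reads, and the exact Poisson 95% intervals of empty vector library 2 (4.97 to 9.65 RPM) and of wild-type library 1 (7.65 to 11.5 RPM) overlapped. The IleAAT47 call was lost without empty vector library 1 (0.41, limma adjusted p = 0.067), without wild-type library 1 (0.55, limma adjusted p = 0.088) and without wild-type library 2 (0.48, limma adjusted p = 0.16). Both calls were lost under both centrings, and they held in 4 of 14 and 7 of 13 alternative fits.

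ValTAC10, the only entry for the GUA-reading valine tRNA, was measured at 4177 and 4830 RPM in the empty vector libraries, and at 3582 and 4135 RPM in the wild-type libraries. The groups lay apart by less than the spread within either, and the log2 fold change of −0.22 had a 95% interval of −0.41 to −0.04 and did not pass (limma adjusted p = 0.054). It passed without empty vector library 1 (−0.33, limma adjusted p = 0.00036) and with entries under a mean of 10 RPM left out (limma adjusted p = 0.042), while without empty vector library 2 or wild-type library 1 the value was −0.12. Its share of valine RPM was 8.06% and 8.09% in empty vector, 6.88% and 7.33% with wild-type METTL1, and 8.32% and 7.15% with mutant METTL1. Both wild-type shares lay below both empty vector shares, and the mutant shares lay on either side of them. Shares are given as a description and no test was run on them. Over amino acids with more than 1 anticodon, 16 of 46 anticodon shares (34.8%) lay lower in both wild-type libraries than in both empty vector libraries.

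The sums per anticodon gave 0 calls among the 7 anticodons, beside 22.2% of all 54 anticodons (18.5% higher and 3.7% lower), and 1 of the 7, PheGAA, had an unadjusted limma p under 0.05, beside 20 of all 54. ValAAC summed to 30048 ± 3037 RPM for empty vector and 29703 ± 1605 RPM for wild type (SD, n = 2), and the 95% interval of the log2 fold change was −0.23 to 0.21. The interval was −0.25 to 0.18 for ValCAC, −0.15 to 0.23 for IleAAT and −0.28 to 0.11 for IleTAT. IleAAT45 and IleAAT35 stood at 1051 and 1023 RPM and at 1047 and 1014 RPM for empty vector, and at 1059 and 1068 RPM and at 1054 and 1056 RPM in the wild-type libraries. PheGAA passed with a pseudocount of 10 RPM or with a variance trend (0.22, limma adjusted p = 0.045 for each), and in none of the rest of 12 alternative fits. Centred on all anticodons it was 0.15 (limma adjusted p = 0.32). With all 6 libraries fitted together the limma adjusted p was 0.21. Without empty vector library 1 the log2 fold change of ValTAC was −0.33, and IleGAT had 0 reads in the control library that remained.

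**Figure D2:**
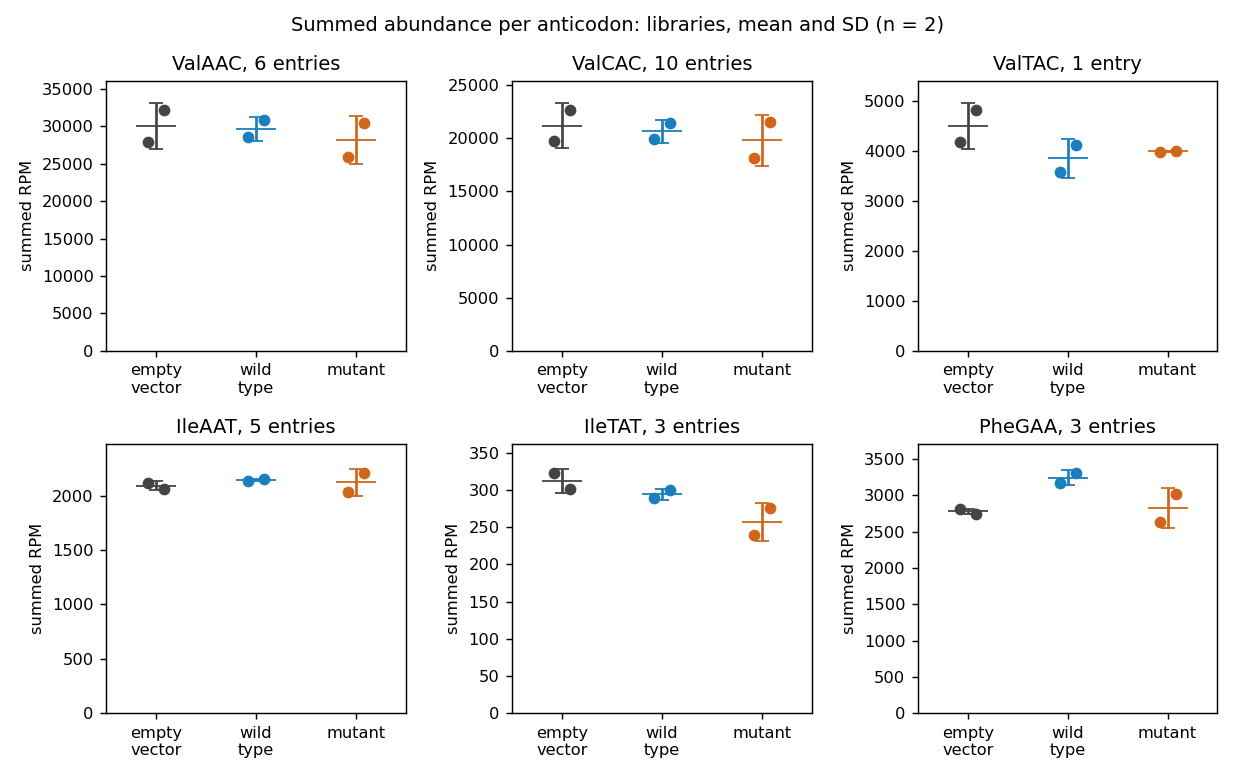
Summed RPM for 6 anticodons, with points for the 2 libraries of each group and bars for the mean and SD; each panel has its own axis from 0. PheGAA lies at 3167 and 3310 RPM with wild-type METTL1 and at 2805 and 2747 RPM in empty vector, and the ValAAC and ValCAC groups overlap.

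The second comparison set the METTL1 labelled mutant with WDR4 against the same empty vector libraries. ValCAC37 fell, and 0 of the 29 entries rose, beside 7.31% of all entries higher and 0.997% lower, or 8.31% in either direction. The mutant libraries stood at 219 and 284 RPM for ValCAC37, both below 324 and 355 RPM in empty vector, a fall of 0.44 on the log2 scale (SE 0.14, limma adjusted p = 0.035). The call was lost without empty vector library 1 (−0.51, limma adjusted p = 0.23), without empty vector library 2 (−0.37, limma adjusted p = 0.73) and without mutant library 1 (−0.25, limma adjusted p = 0.31), and it held in 7 of 14 alternative fits. Of the 29 entries, 3 had an unadjusted limma p under 0.05, beside 48 of all 301. The median log2 fold change was −0.00 over the 29 entries, 0.09 over all entries, 0.11 over the other m7G families with 11 higher and 0 lower, and 0.10 over the families given as lacking m7G with 8 higher and 2 lower. Centring on the families given as lacking m7G moved the values by −0.10 and left 0 calls among the 29.

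Phenylalanine entries differed among themselves in the mutant libraries. PheGAA11 stood at 396 and 548 RPM, both below 584 and 587 RPM in empty vector, with a wide gap between the mutant libraries (log2 fold change −0.33, SE 0.14, limma adjusted p = 0.16). Without mutant library 2 the value was −0.56 (limma adjusted p = 0.010), and without mutant library 1 it was −0.09. PheGAA14 stood at 764 and 862 RPM, above the empty vector libraries, and PheGAA7 at 1473 and 1604 RPM, overlapping them. Neither passed the test. The largest positive change was that of ValCAC7, a minor entry, at 7.55 and 6.78 RPM against 5.25 and 5.73 RPM (0.33, limma adjusted p = 0.49).

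The 2 main IleTAT entries were lower in both mutant libraries than in either control. IleTAT11 stood at 129 and 150 RPM against 175 and 173 RPM in empty vector, and IleTAT4 at 104 and 115 RPM against 139 and 121 RPM. Neither passed (limma adjusted p = 0.24 and 0.42), although in both the groups lay apart, as they did in the lower direction for 6 of the 29 entries and 15.9% of all, and in the higher direction for 2 of the 29 and 32.2% of all. The minor entry IleTAT9 stood at 7.11 and 10.9 RPM against 8.44 and 6.29 RPM. The IleTAT sum had a log2 fold change of −0.28 with a 95% interval of −0.59 to 0.04. As a share of isoleucine RPM, IleTAT made up 13.2% and 12.8% in empty vector, 11.9% and 12.2% with wild-type METTL1 and 10.5% and 11.1% with mutant METTL1, 3 ranges that did not overlap. The 3 ranges lay apart, in any order, for 14 of 46 anticodon shares (30.4%), and in this order for 2 of 46 (4.35%), an order looked at after it was seen for IleTAT. With near-identical entries counted once the shares were 23.2% and 22.4%, 21.1% and 21.5%, and 18.9% and 19.8%, in the same order.

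**Figure D3:**
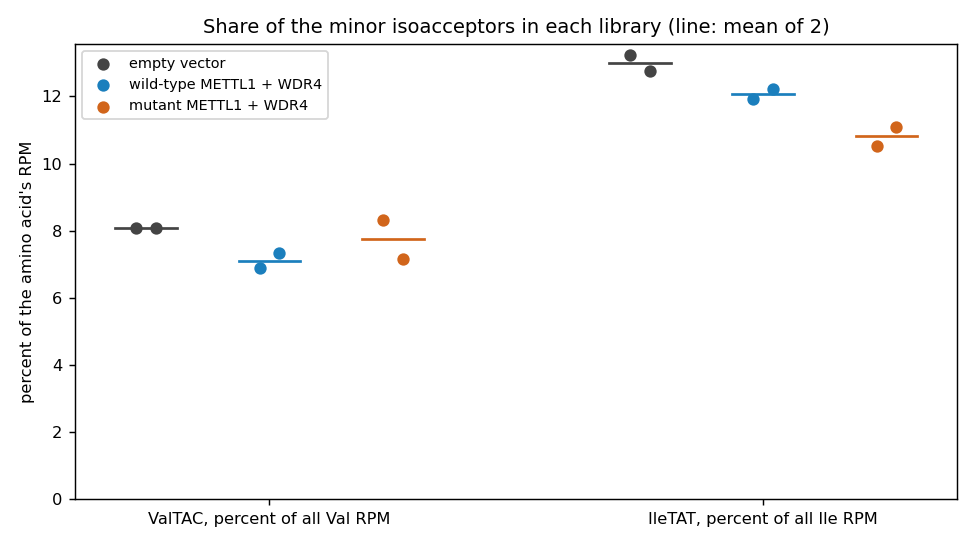
ValTAC as a percent of all valine RPM and IleTAT as a percent of all isoleucine RPM, with 1 point per library and a line at the mean of 2. For IleTAT the mutant libraries lie lowest at 10.5% and 11.1% and the empty vector libraries highest, and for ValTAC the mutant libraries lie on either side of the empty vector values.

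No anticodon sum of the 7 was called with mutant METTL1, beside 3.7% of all 54, all of them higher, and 0 of the 7 had an unadjusted limma p under 0.05, beside 7 of all 54. The 95% intervals were wider than for wild type, from −0.41 to 0.22 for ValAAC, −0.41 to 0.21 for ValCAC, −0.29 to 0.34 for IleAAT and −0.29 to 0.34 for PheGAA. The limma SE was 0.159 for each of the 7, a value pooled over the 54 anticodons. The mutant intervals thus share 1 width and do not show the spread between libraries of the single anticodon. ValTAC10 stood at 3995 and 4001 RPM, both below the empty vector libraries (log2 fold change −0.17, 95% interval of the anticodon value −0.48 to 0.15). As both constructs were compared with the same controls, low values in both arms, as for ValTAC10 and ValCAC37, are not separate observations.

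The third comparison set the 2 METTL1 constructs against each other, wild type minus mutant. PheGAA11 and ValAAC130 were higher and ValCAC18 and ValCAC7 lower with wild-type METTL1, that is 2 entries higher, beside 11.3% of all entries, and 2 lower, beside 3.65% (15.0% in either direction). The groups lay apart in the higher direction for 8 of the 29 entries and 43.2% of all, and in the lower for 3 of the 29 and 15.3% of all. The median log2 difference was 0.09 over the 29 entries, 0.10 over all entries, 0.14 over the other m7G families with 16 higher and 5 lower, and 0.08 over the families given as lacking m7G with 15 higher and 3 lower. With libraries centred on the latter families, which moved the values by −0.10, 0 of the 29 were higher and the same 2 entries, ValCAC18 and ValCAC7, were lower. All 301 entries then had 14 higher and 10 lower in place of 34 and 11.

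PheGAA11, at 625 and 639 RPM with wild-type and 396 and 548 RPM with mutant METTL1, had a log2 difference of 0.44 (SE 0.13, limma adjusted p = 0.0087). Without mutant library 1, the lowest of the 6 for this entry, it was 0.21 (limma adjusted p = 0.090), and leaving out wild-type library 1 (0.46, limma adjusted p = 0.28) or library 2 (0.42, limma adjusted p = 0.34) also ended the call. ValCAC18, at 401 and 422 RPM with wild-type and 468 and 633 RPM with mutant METTL1, differed by −0.40 (SE 0.13, limma adjusted p = 0.021). Without mutant library 2 it differed by −0.19 (limma adjusted p = 0.17), and without wild-type library 1 or 2 by −0.37 and −0.44, with no call (limma adjusted p 0.52 and 0.30). Mutant METTL1 libraries and empty vector libraries overlapped for this entry, whose log2 fold change with the mutant was −0.00.

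ValAAC130 stood at 2543 and 2736 RPM with wild-type and 2245 and 1973 RPM with mutant METTL1 (log2 difference 0.33, SE 0.12, limma adjusted p = 0.049). Its call ended without wild-type library 1 (0.38, limma adjusted p = 0.46) or library 2 (0.27, limma adjusted p = 0.64). ValCAC7 stood at 4.66 and 4.34 RPM with wild-type, 7.55 and 6.78 RPM with mutant METTL1 and 5.25 and 5.73 RPM in empty vector. The wild-type libraries thus lay lowest and the mutant libraries highest (log2 difference −0.57, SE 0.21, limma adjusted p = 0.049). The call rests on 49 and 60 reads against 103 and 68 and was lost without wild-type library 1 (−0.61, limma adjusted p = 0.52) or library 2 (−0.53, limma adjusted p = 0.56). Among the alternative fits the PheGAA11 call held in 10 of 14, that of ValCAC18 in 9 of 14, that of ValAAC130 in 6 of 14 and that of ValCAC7 in 7 of 13. Of the entries not called, IleAAT47 had the largest difference, 9.41 and 9.92 RPM with wild-type against 6.01 and 7.28 RPM with mutant METTL1 (0.48, limma adjusted p = 0.11). The IleAAT47 difference was 0.60 without mutant library 2 and 0.37 without mutant library 1, and it was called in 3 of 13 alternative fits.

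**Figure D4:**
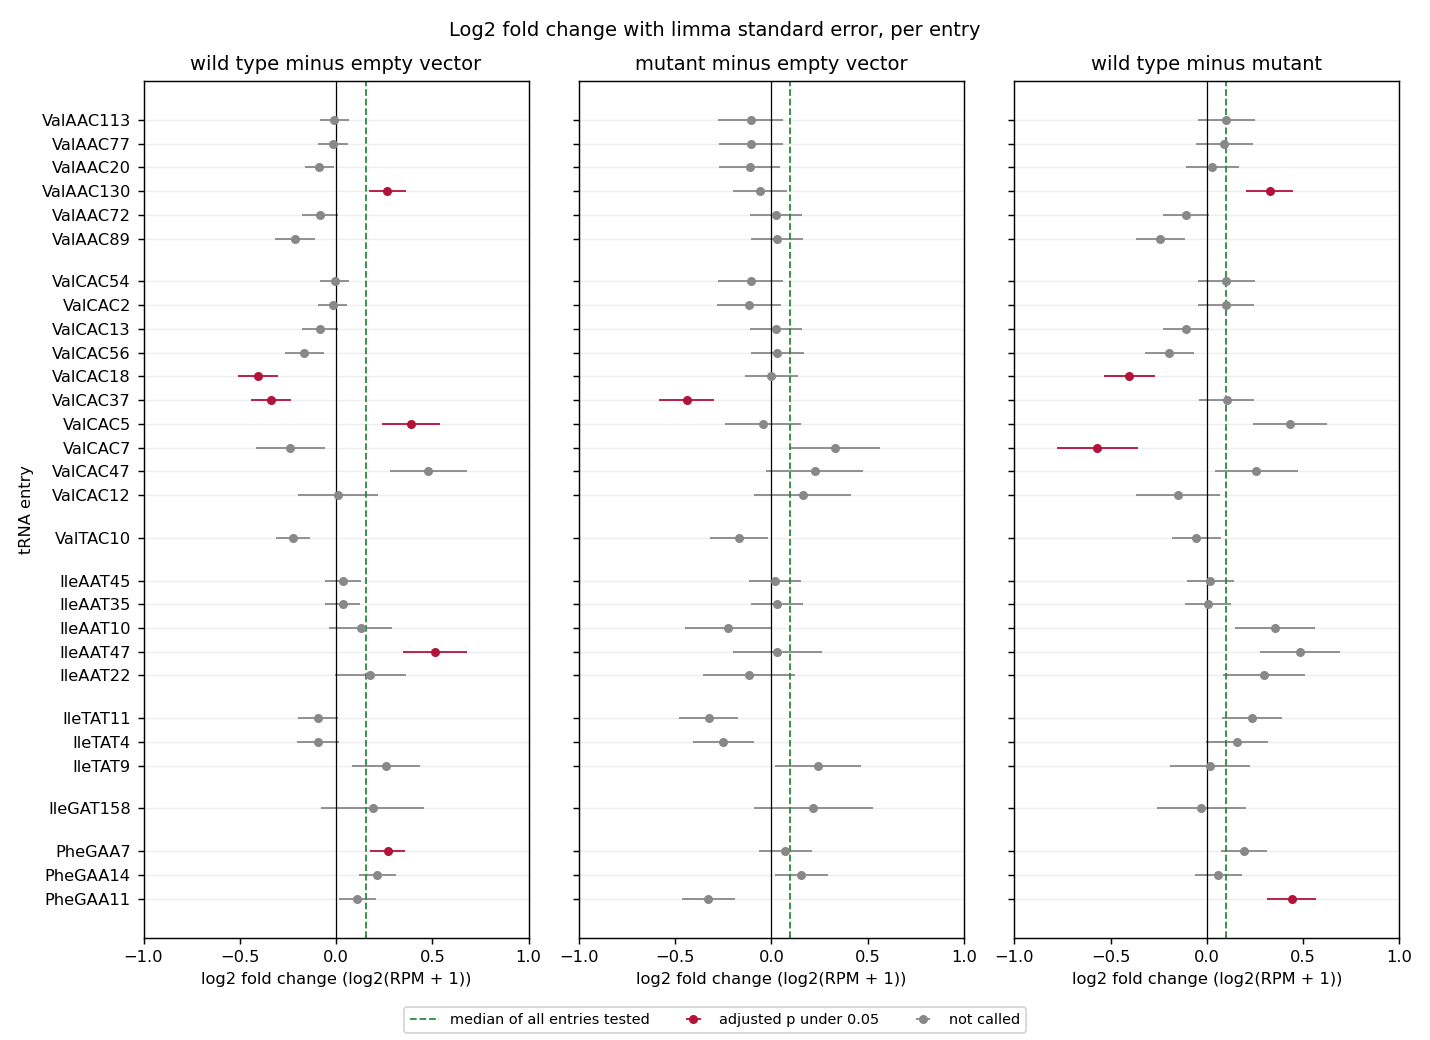
Log2 fold change of log2(RPM + 1) with its limma standard error for each of the 29 entries in the 3 comparisons, called entries in red, with a dashed line at the median of all 301 entries. The most abundant valine and isoleucine entries lie near 0 in the first panel, and ValCAC18 and ValCAC37 lie farthest to the left there, at −0.40 and −0.34.

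No anticodon sum of the 7 was called between wild-type and mutant METTL1, beside 7.41% of all 54 anticodons called (5.56% higher and 1.85% lower), and 0 of the 7 had an unadjusted limma p under 0.05, beside 14 of all 54. The 95% interval of the log2 difference was −0.06 to 0.46 for PheGAA, −0.06 to 0.45 for IleTAT, −0.18 to 0.34 for ValAAC and −0.31 to 0.20 for ValTAC. The limma SE was 0.129 to 0.131 over the 7, so here too the intervals hardly show the spread of the single anticodon. Without mutant library 2, which leaves 1 mutant library, the log2 difference was 0.30 for PheGAA and 0.30 for IleTAT. Without mutant library 1 it was 0.10 for PheGAA and 0.09 for IleTAT.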

How the data were processed

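Only the input libraries were analysed, 2 per group. The build was mm10 and the tools were Bowtie, Trim Galore and bedtools, with no versions, per the submitters' processing notes. The authors deposited 2 tables of 301 tRNA entries in RPM, with identical empty vector columns in both. The authors also deposited a fold change (ratio of mean RPM), its log2 value, an unadjusted p-value and its −log10. RPM values are whole multiples of the value of 1 read (tolerance 0.01), which gave depth and counting error. No count test was run on the recovered reads.

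log2(RPM + 1) was fitted in limma 3.58.1 (R 4.3.3) for each comparison on its own 4 libraries, with a variance trend, no filter and BH adjustment over 301 entries. Anticodon sums over 54 anticodons were fitted likewise without a trend. An adjusted p under 0.05 was called. The scripts were tested on simulated data. Python 3.11.15 made the other values. Entries named are, per anticodon, the 2 highest and the lowest by mean RPM, all called entries and the largest change in each direction. ValCAC13, ValAAC72, ValAAC20 and GlyACC69 were named after their values were seen. The members and lists were chosen with earlier results of these data known. Alternatives are in the closing section.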

Additional observations from a re-analysis of the deposited data

How the results depend on the processing

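Calls among the 29 entries were few and moved with most settings, and for none of these moves was the cause tested. For wild type against empty vector (4 higher, 2 lower) the counts were 0 and 1 when centred on all entries, 0 higher when centred on the families given as lacking m7G or when all 6 libraries were fitted together, 1 higher without the variance trend, 2 higher with near-identical entries merged within an anticodon, and 4 lower at a minimum mean of 10 RPM. Leaving out 1 library also moved the counts, among the 29 entries and among all entries, so such moves were not limited to these tRNAs. For mutant against empty vector (0 higher, 1 lower) the lower count was 0 at a pseudocount of 10 RPM and without the trend. It was also 0 when centred on the families given as lacking m7G and with the replicate block. It moved with 1 library left out too. For wild type against mutant (2 higher, 2 lower) the counts were 1 and 1 at a pseudocount of 0.5 RPM, 4 higher at a pseudocount of 10 RPM, 1 lower at a minimum mean of 10 RPM, centred on all entries or without the trend, and 0 higher centred on the families given as lacking m7G. They were 1 and 0 with the replicate block and 1 and 1 with near-identical entries merged within an anticodon. The higher count was 1 when merged across the anticodons of an amino acid (chosen after seeing the data). With 1 library left out the counts moved as well, again among the 29 entries and among all entries. Among anticodons, where 0 were called, wild type against empty vector gave 1 higher at a pseudocount of 10 RPM or with the trend. It gave 1 lower when centred on all anticodons. For wild type against empty vector and against mutant, calls also arose with 1 library left out, where a group holds 1 library.

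Anticodon values that changed sign were all uncalled. With 1 library left out, the wild-type value ran from −0.117 to 0.0893 for ValAAC and from −0.135 to 0.0662 for ValCAC. The mutant value ran from −0.210 to 0.0225 for ValAAC, −0.224 to 0.0241 for ValCAC, −0.0366 to 0.0822 for IleAAT and −0.0763 to 0.119 for PheGAA. The difference between constructs ran from −0.0365 to 0.196 for ValAAC, −0.0584 to 0.190 for ValCAC, −0.159 to 0.0486 for ValTAC and −0.0435 to 0.0753 for IleAAT. Centred on all anticodons, IleAAT was −0.0379 with wild type and −0.0497 with the mutant, and PheGAA −0.0513 with the mutant. With the mean of the entries' log2 values, IleTAT was 0.0242 with wild type, ValCAC 0.00604 with the mutant and −0.0437 between constructs, IleAAT −0.0533 and PheGAA −0.0337 with the mutant. The 11 entry calls kept their sign in all 152 alternative values, which was largely fixed in advance. In each of the 11 the groups lay apart, so leaving out 1 library or changing the pseudocount could not change the sign. Fits that changed only the variance model kept the same log2 fold change, so only the centrings could have changed a sign. Over all 29 entries and 3 comparisons, 93 of 1194 alternative values changed sign, in 47 of 87 entry values, and none of the 93 was called. ValCAC54, for example, was −0.0071 for wild type against empty vector and ran up to 0.099.

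The replicate numbers were not treated as pairing, since the labels do not say that they pair libraries. The deviations of same-numbered libraries correlated at 0.09, −0.12 and −0.05 over 301 entries, and at 0.02, 0.01 and 0.04 over the 29. However, of the 13 valine entries over 100 RPM, 13, 13 and 12 were higher in library 2 of empty vector, wild type and mutant. Several of these 13 are near-identical to each other, so they are not 13 separate observations. Of the 12 isoleucine and phenylalanine entries, 5, 11 and 9 were higher in library 2. With the block, wild type against empty vector gave 4 higher and 3 lower. ValTAC10 was the added one (limma adjusted p = 0.031). ValCAC37 with the mutant had a limma adjusted p of 0.097 under the block, and between constructs ValCAC18 had 0.073, ValAAC130 and ValCAC7 0.15 each and PheGAA11 0.040. Over all 301 entries the counts of higher and lower calls moved as well. For wild type (91 and 22), centring on the families given as lacking m7G gave the fewest higher (29) and the most lower (38). For the mutant (22 and 3) the common fit of 6 libraries gave the most lower (5). The other extremes of the 14 alternatives, and all of those between constructs (34 and 11), came with 1 library left out. A fit without 1 library assumes that the lone library varies like the other group. The planned edgeR and DESeq2 fits on recovered whole reads were not run. All 301 values were whole in each library, but the columns hold too few low values for the check of such a recovery that was required here, so this was a choice and not a limit of the unit. Depth limits the 9 entries with a mean under 100 RPM, which hold 0 to 364 reads in a library.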

Other observations

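GlyACC69, a glycine entry, lay within 3.75% of ValAAC20 in every library, and the gap was under the counting SD of a difference in 2 of 6 libraries. ValAAC20 stood at 6664 and 7458 RPM for empty vector, 6374 and 6921 RPM for wild type, and 5632 and 7544 RPM for the mutant. ValAAC20 was the fifth most abundant of the 29 entries, and its groups overlapped in all 3 comparisons.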
